A study of Mus musculus with 6 samples.

Results

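Glycolysis splits glucose into pyruvate in the cytosol, and lactate dehydrogenase then turns pyruvate into lactate. Hexokinase and phosphofructokinase spend ATP early in the pathway, and phosphoglycerate kinase and pyruvate kinase gain ATP later on. Quiescent HSCs are known to rely on this pathway in the bone marrow, where oxygen is scarce. The 10 genes described here encode one enzyme each for the steps from hexokinase to lactate dehydrogenase, namely *Hk2*, *Gpi1*, *Pfkl*, *Aldoa*, *Tpi1*, *Gapdh*, *Pgk1*, *Pgam1*, *Eno1* and *Ldha*. They were chosen by symbol, as the main isoform of each step, and all 10 were found among the 26216 gene names. Pyruvate kinase is not among them, and its gene *Pkm* is described beside them.

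RNA was sequenced from LT/ST-HSCs of mixed chimeras 6 weeks after transplantation, with 3 replicates of *Ltbr*-/- (CD45.2) cells from donors aged 10 to 13 weeks and 3 of Ly5.1 (CD45.1) cells from donors aged 7 to 13 weeks. LSKs of both donors had been injected together into Ly5.1/Ly5.2 hosts after lethal irradiation, so that both genotypes were exposed to the same hosts. The donors differ in the deleted gene, in the form of *Ptprc* (CD45) and in whatever else separates the strains. The age range of the *Ltbr*-/- donors lies inside that of the Ly5.1 donors. *Ltbr*-/- replicate 1 came from donors of 13 weeks, replicate 2 of 10 weeks and replicate 3 of 10 to 13 weeks. Each Ly5.1 replicate spanned 7 to 13 weeks. The cells of 6 chimeras were pooled into the replicates, and the sort took Lin-, Annexin-V-, sca1+, c-kit+, CD150+ and CD48- cells. The deposited value, here called the signal, is 2 to the power of a regularized log, a log2 expression value that is scaled for library size and drawn towards the mean in weakly expressed genes. A gene was called if its adjusted p (limma, Benjamini-Hochberg) was under 0.05 and its fold reached 1.5, and the 13108 gene names in the upper 50% by mean were tested. All 10 members were among these.

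The deleted gene, *Ltbr*, had a signal of 24.2, 26.4 and 23.1 in *Ltbr*-/- LT/ST-HSCs, against 564, 549 and 522 in Ly5.1. The markers of the sorted cells were present. All 13 HSC markers were tested and none was called. By the adjusted p alone *Ly6a* (sca1, 567 against 744 in the mean) and *Meis1* were lower and *Gata2* was higher. Their summed signal lay between 19376 and 20022 in *Ltbr*-/- and between 20238 and 21150 in Ly5.1 cells, while *Cd48* had a mean of 25.2 and 25.1. Genes of other cells differed between the genotypes. The 11 neutrophil genes summed to 45612 to 46451 in *Ltbr*-/- and to 59663 to 64570 in Ly5.1 cells, and 9 of them had an adjusted p under 0.05 and were lower, with none past the fold threshold. The 10 mast cell and basophil genes summed to 7538 to 8109 against 4145 to 4732, and *Cma1*, called higher with a mean of 5470 against 2195, made up most of that difference. Of the 7 tested, 3 were above 0 on the log2 scale, with a median of −0.04. By the adjusted p alone *Cpa3* was higher (0.56) and *Prss34* lower (−0.41), while *Tpsb2* was listed at 1 in every sample. The 8 erythroid genes summed to 4708 to 4935 against 3050 to 3451, with *Hba-a1* and *Hba-a2* called higher. The 10 B cell and plasma cell genes summed to 1971 to 2043 against 3127 to 3444, with the immunoglobulin genes *Ighm*, *Igkc* and *Igha* called lower and *Cd79a* called higher. Of the other lists, 1 of 10 tested monocyte and macrophage genes (*Adgre1*, higher) was called. Of these 10, 3 were above 0 on the log2 scale, with a median of −0.03, and *Cd68* (0.28) was higher by the adjusted p alone. None of 4 tested T and NK cell, 5 megakaryocyte and 4 multipotent progenitor genes was called. Of the megakaryocyte genes, *Itga2b* (0.31) was higher and *Pf4* (−0.33) lower by the adjusted p alone. Of the progenitor genes, *Flt3* (−0.28) and *Cd34* (−0.31) were lower by the adjusted p alone. Over all tested genes, 2.72% were called higher and 0.0610% lower. By the adjusted p, whatever the fold, 10.6% were higher and 4.18% lower. The part of these other cells in the differences described next was not tested. In bulk samples, fewer cells of a type and less RNA per cell cannot be told apart.

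On the deposited scale, loss of *Ltbr* went with a higher signal of most glycolytic enzyme genes, and the first step was the exception. The rise was not particular to these genes, since the ribosomal protein genes rose as well. Of the 10 members, 7 were called higher in *Ltbr*-/- LT/ST-HSCs and none lower, against 2.72% called higher and 0.0610% lower of all tested genes. By the adjusted p alone 9 members were higher and none lower, against 10.6% and 4.18% of tested genes. In 9 of the 10, every *Ltbr*-/- sample lay above every Ly5.1 sample, which was so for 17.0% of tested genes. The median log2 fold change of the members was 0.76, against −0.011 over all tested genes. Abundant genes were called more often than others: of the 1310 tested genes in the upper 10% by mean, 15.2% were called higher, 31.5% were higher by the adjusted p alone and 37.5% lay higher without overlap. The median of these genes was 0.019. Of the members, 7 belong to this upper 10%, and 6 of these 7 were called. The direction depended on what the samples were scaled to. Centring each sample on the 77 ribosomal protein genes put the all-gene median at −0.87 and the member median at −0.10. It left 0 members called higher and made *Hk2* a called lower gene. A member median below 0 there means that the ribosomal protein genes rose more on the deposited scale than the median member. This centring shifts all genes of a sample by the same amount. The distance of 0.77 between the member median and the all-gene median on the deposited scale therefore could not change. After quantile normalization, which is not such a shift, the distance was 0.58 and 4 members were called.

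**Figure D1:**
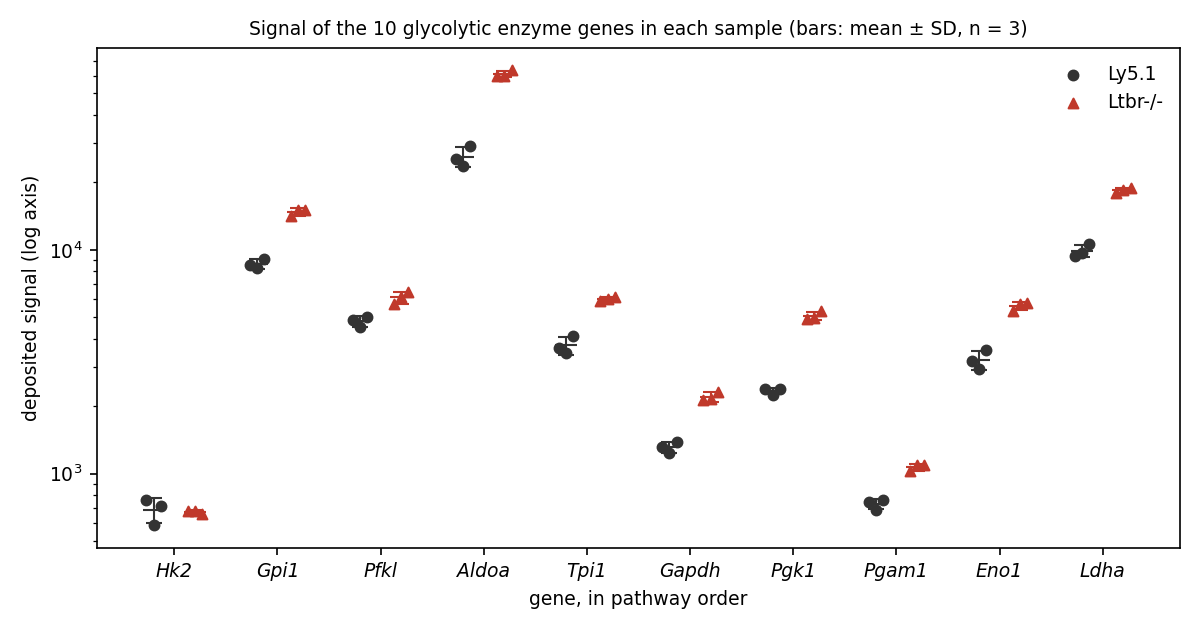
Deposited signal (log axis) of the 10 members in pathway order, with Ly5.1 samples as black circles, *Ltbr*-/- samples as red triangles and bars for the mean ± SD of 3 samples. On the deposited scale the *Ltbr*-/- samples lie above all Ly5.1 samples in 9 genes and within their range in *Hk2*, while centring on ribosomal protein genes turns the direction of *Gpi1*, *Pfkl*, *Tpi1*, *Gapdh*, *Pgam1* and *Eno1*.

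The enzymes that commit glucose to the pathway had the smallest log2 fold changes of the 10. *Hk2* (chr6:82725025-82774454, GRCm38.p6), one of the hexokinases that trap glucose in the cell as its phosphate, had a signal of 678, 682 and 660 in *Ltbr*-/- and of 760, 589 and 715 in Ly5.1 cells. The *Ltbr*-/- values lay inside the range of the Ly5.1 values. The log2 fold change was −0.02 (95% interval −0.22 to 0.17, adjusted p = 0.912 from limma), which leaves room for a small change either way. It changed sign without Ly5.1 replicate 1 (0.05) and without Ly5.1 replicate 3 (0.01). *Pfkl* (chr10:77986947-78009807), the liver-type phosphofructokinase subunit of the committing step, had a signal of 5749, 6129 and 6499 in *Ltbr*-/- and of 4844, 4518 and 5022 in Ly5.1 cells. The groups did not overlap, but the fold of 1.28 stayed under the threshold (log2 fold change 0.35 ± 0.07 standard error, adjusted p = 0.000442 from limma). Quantile normalization brought *Pfkl* to 0.18 on the log2 scale, with an adjusted p of 0.0595 from limma.

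The steps between them and the splitting of the sugar held the largest change. *Gpi1* (chr7:34201327-34230336), which turns glucose-6-phosphate into fructose-6-phosphate, rose from 8536, 8251 and 9121 in Ly5.1 to 14117, 15051 and 15117 in *Ltbr*-/- cells. Its fold was 1.71 (log2 fold change 0.77 ± 0.06 standard error, adjusted p = 2.9e-12 from limma). *Aldoa* (chr7:126795234-126800994), the aldolase that cuts fructose-1,6-bisphosphate into 2 triose phosphates, had the highest signal per kb of transcript of the members. Its signal was 25540, 23715 and 29004 in Ly5.1 and 60046, 59818 and 63232 in *Ltbr*-/- cells, and its mean exceeded that of 99.9% of tested genes. The fold of 2.35 was the largest of the 10 (log2 fold change 1.23, 95% interval 1.12 to 1.34, adjusted p = 6.2e-19 from limma). *Tpi1* (chr6:124810586-124814158), which interconverts both triose phosphates, rose from 3646, 3457 and 4121 to 5913, 6018 and 6179, a fold of 1.62 (adjusted p = 2.83e-09 from limma). With quantile normalization *Aldoa* was at 0.79 on the log2 scale, and *Gpi1* (0.46) and *Tpi1* (0.56) were no longer called. The 95% intervals on the deposited scale were 0.65 to 0.90 for *Gpi1* and 0.54 to 0.85 for *Tpi1*, and the differences between genes were not tested.

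Of the 4 members between the triose phosphates and pyruvate, 3 were called. *Gapdh* (chr6:125161852-125166467), which oxidizes glyceraldehyde-3-phosphate with NAD+, had a signal of 2126, 2152 and 2326 in *Ltbr*-/- and of 1316, 1230 and 1379 in Ly5.1 cells. Its fold was 1.68 (adjusted p = 5.6e-09 from limma). *Pgk1* (chrX:106187100-106203699), the first ATP-yielding enzyme, had the second largest change. Its signal rose from 2380, 2246 and 2393 in Ly5.1 to 4896, 4972 and 5329 in *Ltbr*-/- cells, a fold of 2.16 (log2 fold change 1.11, 95% interval 0.96 to 1.27, adjusted p = 2.47e-14 from limma). *Pgam1* (chr19:41911871-41918665), which moves the phosphate group of phosphoglycerate, had a signal of 1025, 1094 and 1088 in *Ltbr*-/- and of 746, 689 and 766 in Ly5.1 cells. The groups were apart, but the fold was 1.46 and missed the threshold (log2 fold change 0.54, adjusted p = 1.28e-05 from limma). *Eno1* (chr4:150236708-150248879), the enolase that forms phosphoenolpyruvate, rose from 3178, 2938 and 3551 in Ly5.1 to 5341, 5703 and 5762 in *Ltbr*-/- cells, a fold of 1.74 (adjusted p = 1.83e-10 from limma).

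At the end of the pathway, *Ldha* (chr7:46842274-46855627), which reduces pyruvate to lactate and returns NAD+ to the *Gapdh* step, came next to *Aldoa* in signal per kb. Its signal was 9376, 9660 and 10567 in Ly5.1 and 17946, 18535 and 18869 in *Ltbr*-/- cells. The fold was 1.87 (log2 fold change 0.90, 95% interval 0.78 to 1.03, adjusted p = 3.27e-14 from limma), and quantile normalization brought the log2 value to 0.55 and under the fold threshold. *Pkm*, the pyruvate kinase gene that is not a member, rose from 10125, 9593 and 10967 to 15706, 16478 and 16963 (log2 fold change 0.68, adjusted p = 7.28e-11 from limma), while *Pklr*, the liver and red cell form, had means of 101 ± 1.03 and 104 ± 4.64 (SD, n = 3 each; *Ltbr*-/- first) and did not pass the test. The first 5 members, up to *Tpi1*, had a median log2 fold change of 0.69 and the last 5 of 0.80. For every member with separate groups, the exact two-sided permutation test of 3 against 3 values gave p = 0.1, the smallest that this design allows.

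**Figure D2:**
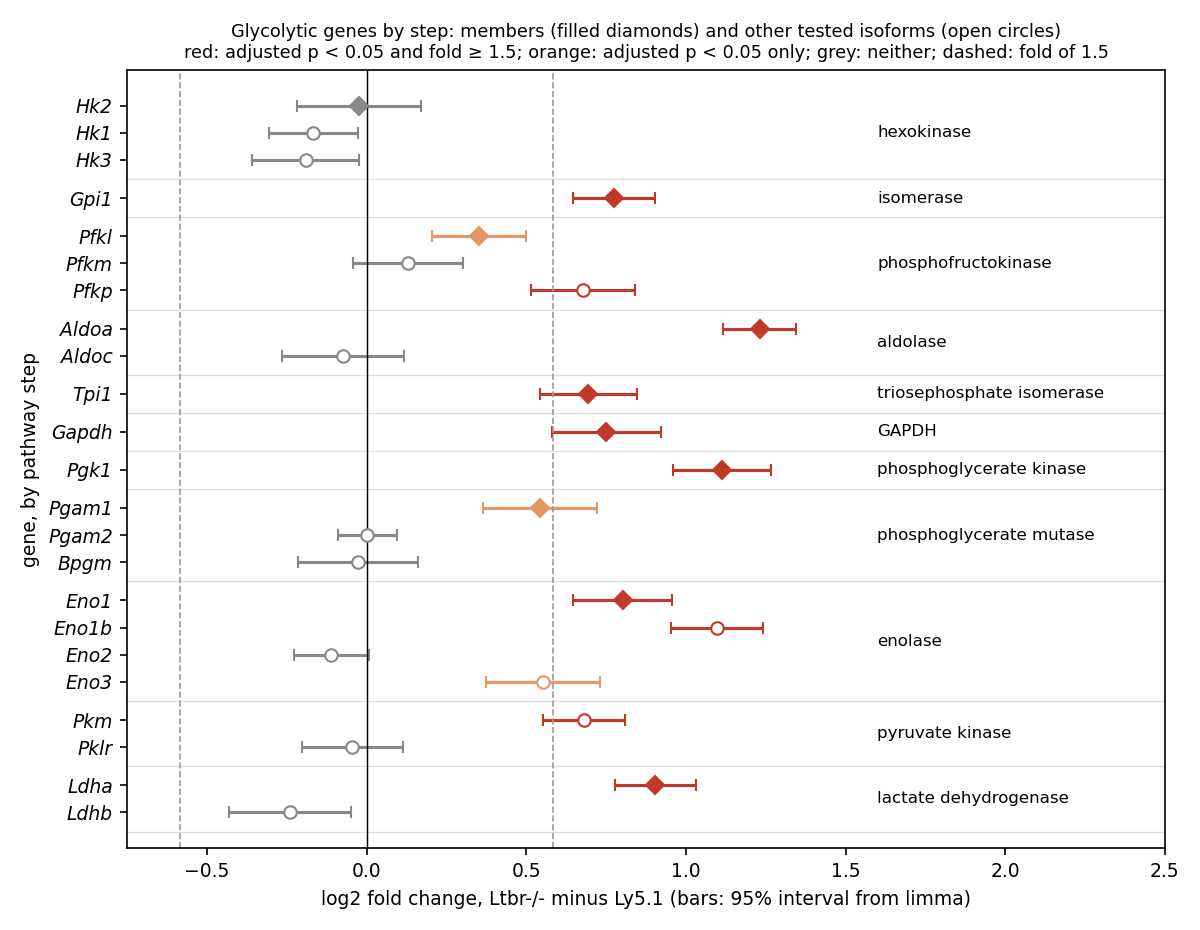
Log2 fold change (*Ltbr*-/- minus Ly5.1, with 95% intervals from limma) of the members (filled diamonds) and of the other tested isoforms (open circles), by pathway step. On the deposited scale the hexokinases lie at or below 0, and *Aldoa* at 1.23, *Pgk1* at 1.11 and *Eno1b* at 1.10 lie farthest to the right; *Gpi1*, *Pfkl*, *Tpi1*, *Gapdh*, *Pgam1* and *Eno1* fall below 0 when samples are centred on ribosomal protein genes.

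Most steps have further isoforms, and some of these were called. Of the 18 listed, 11 were tested, 2 were called higher (*Pfkp* and *Eno1b*; 2.72% of all tested genes were) and none lower, and their median on the log2 scale was −0.03. At the hexokinase step *Hk1*, the form bound to mitochondria in most tissues, had a signal of 5700, 5851 and 5920 in *Ltbr*-/- and of 6618, 6287 and 6717 in Ly5.1 cells (log2 fold change −0.17, adjusted p = 0.1 from limma). *Hk3* had a signal of 1391, 1496 and 1506 against 1659, 1672 and 1683 (log2 fold change −0.19, adjusted p = 0.122 from limma). So none of the 3 tested hexokinases passed the test. *Hk1* and *Hk3* lay lower without overlap, as did 13.5% of all tested genes. At the phosphofructokinase step the platelet-type subunit *Pfkp* was called, at 3480, 3640 and 3930 in *Ltbr*-/- against 2251, 2160 and 2505 in Ly5.1 cells (log2 fold change 0.68, adjusted p = 2.41e-08 from limma). The muscle-type subunit *Pfkm* was at 0.13 (adjusted p = 0.339 from limma). The 95% intervals were 0.51 to 0.84 for *Pfkp* and 0.21 to 0.50 for *Pfkl*, and their difference was not tested. *Eno3*, the muscle enolase, passed the adjusted p only (log2 fold change 0.55, adjusted p = 8.77e-06 from limma), and *Ldhb*, the heart-type lactate dehydrogenase subunit, was at −0.24 (adjusted p = 0.0805 from limma). *Pgk2* and *Hkdc1* were listed at 1 in every sample.

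Signals can be compared between genes only per length, so they were divided by the length of the longest protein-coding transcript. On this scale *Hk2* was the smallest of the 3 expressed hexokinases, with 125 per kb in Ly5.1 cells against 1529 for *Hk1* and 519 for *Hk3*, and it made up 5.74% of the step there and 6.3% in *Ltbr*-/- cells. The choice of *Hk2* as main isoform thus did not hold in these cells. *Pfkl* was the largest phosphofructokinase, with 52.1% of the step in Ly5.1 and 51.0% in *Ltbr*-/- cells, while *Pfkp* went from 22.5% to 27.6%. *Aldoa* (99.5% in Ly5.1), *Ldha* (95.6%) and *Pgam1* (92.9%) dominated their steps. *Bpgm*, listed at the step of *Pgam1* with a mean signal of 257 in Ly5.1 cells, was left out of these shares. Counting it would lower the 92.9%. At the enolase step *Eno1* came second, with 29.7% in Ly5.1 and 26.3% in *Ltbr*-/- cells. The name *Gm5506*, a synonym of *Eno1b*, came first with 62.8% and 68.2%. Reads may have been split between both genes, so their order is uncertain. Over the members, the signal per kb in Ly5.1 cells ran from *Aldoa* (16841), *Ldha* (5437), *Gpi1* (2994) and *Tpi1* (2328) to *Gapdh* (921), *Pgam1* (414) and *Hk2*. Reads of *Gapdh* and *Pgam1* may also have been split with copies, as described below, so their places are uncertain too. These shares and levels are descriptions, with no test.

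**Figure D3:**
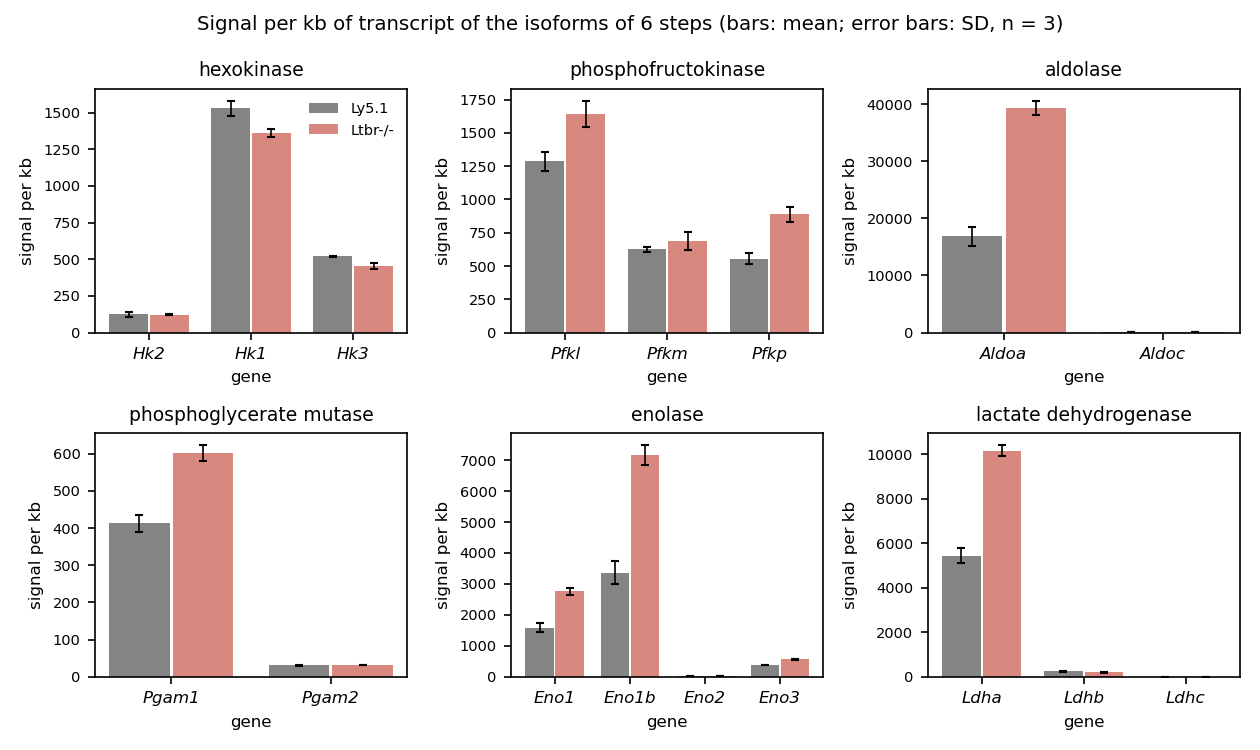
Signal per kb of transcript (linear axis from 0, mean and SD of 3 samples) of the isoforms of 6 steps in Ly5.1 (grey) and *Ltbr*-/- (red) cells; isoforms under 5 per kb in both genotypes are left out. *Hk1* and not *Hk2* is the largest hexokinase, and *Eno1b* is above *Eno1* in both genotypes. Reads of *Eno1* and *Eno1b* may have been split between them.

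Several members share long stretches with copies elsewhere in the genome, to which reads can be assigned. The reads were 76 bases long, so the transcripts were cut into windows of 76 bases. Of the windows of *Gapdh*, 80.2% also occurred in transcripts of other genes, in 115 genes in all, of which 1 (*Peli2*) was listed in the files. The share was 67.5% for *Pgk1*, 65.2% for *Eno1* and 40.6% for *Pgam1*. It was between 0% and 9.7% for *Hk2*, *Pfkl*, *Aldoa*, *Tpi1*, *Ldha* and *Gpi1*. Values of the first 4 genes are therefore uncertain, since reads may have been split between copies. Of the 6 members under 10%, 4 were called higher, against 2.72% of all tested genes. The median of these 6 on the log2 scale was 0.73. Only exact matches over 76 bases were counted, so copies that differ by a few bases are missed. Of the 3 sharing genes with a value of their own, *Eno1b* and *Aldoart1* rose and *Peli2*, which holds 1.4% of the windows of *Gapdh*, was at −0.08 (adjusted p = 0.507 from limma). *Eno1b*, which holds 64.0% of the windows of *Eno1*, was listed at 12826, 12273 and 13426 in *Ltbr*-/- and at 5626, 5638 and 6808 in Ly5.1 cells (log2 fold change 1.10, adjusted p = 9.2e-15 from limma). Of its own windows, 79.4% occurred in other genes, with *Eno1* sharing the most, so its value is uncertain as well. *Aldoart1*, a retrogene of *Aldoa*, had a signal of 3081, 3406 and 3034 against 1304, 1438 and 1562 (log2 fold change 1.15, adjusted p = 1.85e-13 from limma) and holds 1.2% of the windows of *Aldoa*. Since exact matches miss near-identical copies, reads of *Aldoa* may also have been assigned to *Aldoart1*. Its value is therefore uncertain too, and a split of reads between both genes was not tested.

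**Figure D4:**
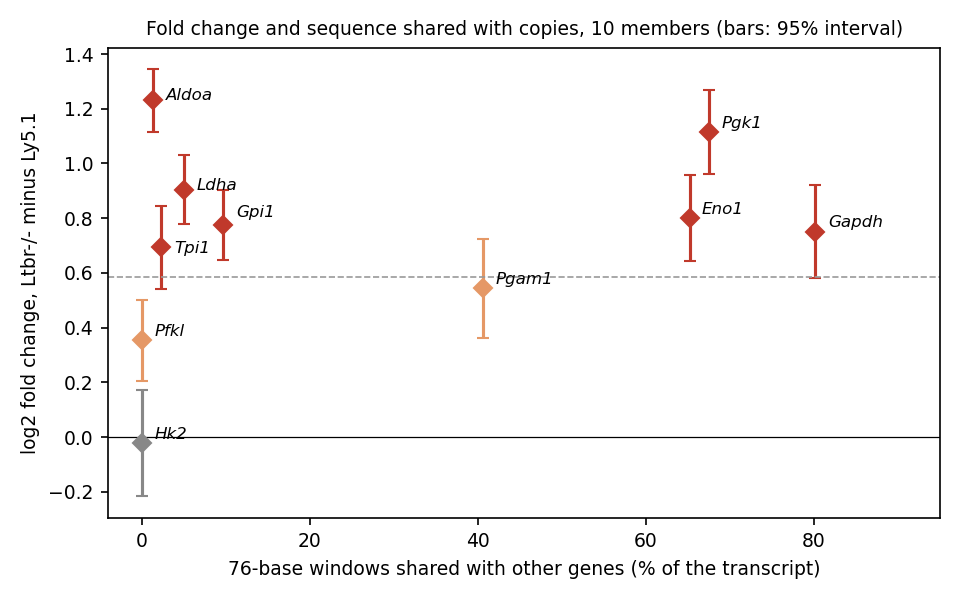
Log2 fold change with its 95% interval against the share of 76-base windows found in other genes, for the 10 members. On the deposited scale called members (red) stand at both ends of the axis, from *Aldoa* at 1.3% to *Gapdh* at 80.2%; 6 of the 10 turn direction with centring on ribosomal protein genes.

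A pair of members lies next to the deleted gene. *Gapdh* lies 0.140 Mb and *Tpi1* 0.492 Mb from *Ltbr* on chromosome 6, and DNA around a targeted gene can stem from another strain. Of the 144 tested genes within 10 Mb of *Ltbr*, counted with *Gapdh* and *Tpi1* but without *Ltbr*, 10 were called higher and none lower. This was 6.94%, against 2.72% of all tested genes, and both members are among the 10. The median on the log2 scale was −0.02. The other listed genes there were not called, namely *Eno2* (−0.11), *Slc2a3* (0.18) and *Tigar* (0.07). Without *Gapdh* and *Tpi1*, 5 of the remaining 8 members were called higher, and the median was 0.79. No member lies on chromosome 1, which carries *Ptprc*.

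The members also moved together within a genotype. Ly5.1 replicate 2 had the lowest signal of its group in 9 of the 10 members and Ly5.1 replicate 3 the highest in 9. In *Ltbr*-/- cells replicate 1 was lowest in 8 members and replicate 3 highest in 8. These deviations were small beside the difference between the genotypes: the median member stood 0.33, 0.38 and 0.43 above its mean over all samples in *Ltbr*-/- and 0.39, 0.46 and 0.28 below it in Ly5.1 replicates 1, 2 and 3, on the log2 scale. The median log2 signal of the upper 10% of tested genes moved in part with them, at 11.672, 11.698 and 11.703 in *Ltbr*-/- and at 11.621, 11.562 and 11.608 in Ly5.1 replicates 1, 2 and 3. Its part in the result was not tested, and centring on these genes left 7 members called with a median of 0.67. Over the 6 samples, the genes whose log2 signal was most like the mean of the members were *Rplp0* (Pearson r = 0.9998), *Lgals1* (0.9996), *Ftl1* (0.9994), *Nop10* (0.9993) and *Pkm* (0.9993). These 6 points share the split by genotype. Of 13098 genes, 685 had an r of at least 0.95, so that a high r is common here. *Rplp0* is a ribosomal protein gene and was itself called higher (log2 fold change 0.71).

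**Figure D5:**
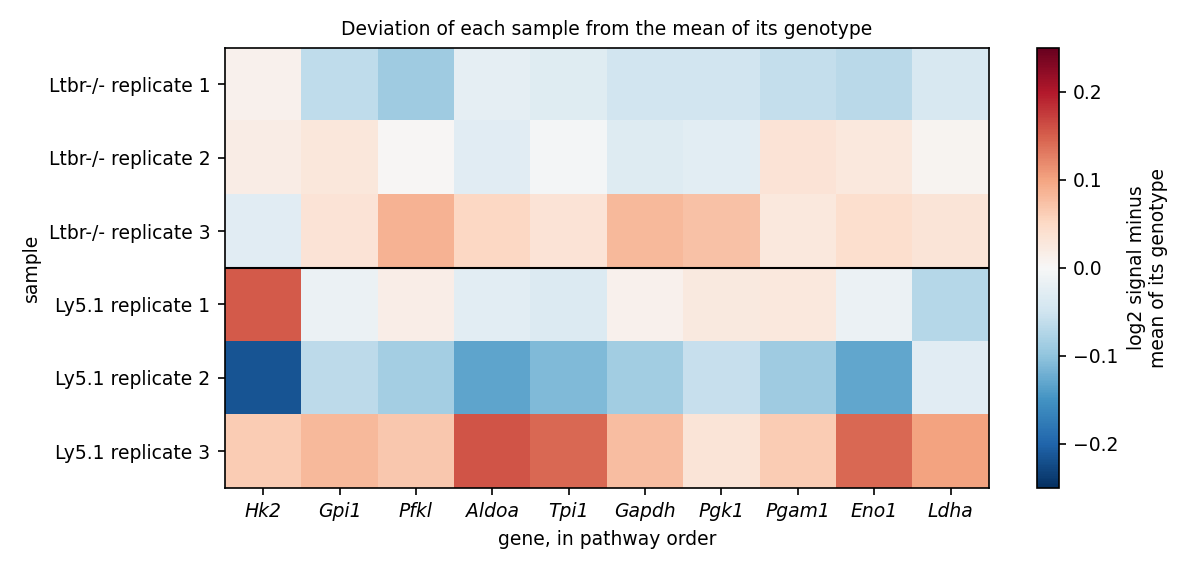
Log2 signal of each member in each sample minus the mean of its genotype (colour scale from −0.25 to 0.25). The row of Ly5.1 replicate 2 is below 0 in all 10 members and that of Ly5.1 replicate 3 above 0 in all 10, while *Ltbr*-/- replicate 3 is below 0 in *Hk2* alone.

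Around the pathway, a minority of genes was called. The 9 lists of genes beside the members held 84 genes, of which 68 were tested, 7 were called higher (10.3%, against 2.72% of all tested genes) and none lower. By the adjusted p alone 14 were higher (20.6%, against 10.6% of all tested genes) and 2 lower. The median over these 68 genes was −0.02 on the log2 scale. Among 10 tested transport genes, the glucose importer *Slc2a1* was called. Its signal was 1174, 1181 and 1061 in *Ltbr*-/- and 699, 680 and 663 in Ly5.1 cells (log2 fold change 0.74, adjusted p = 2.78e-08 from limma). Another glucose importer, *Slc2a3*, had means of 1247 in *Ltbr*-/- and 1104 in Ly5.1 cells. It did not pass the adjusted p (log2 fold change 0.18, adjusted p = 0.174 from limma). *Bsg*, the chaperone of lactate carriers, passed the adjusted p only (log2 fold change 0.52, adjusted p = 4.86e-07 from limma), and the lactate carriers *Slc16a1* (−0.09) and *Slc16a3* (−0.10) did not pass it. A further lactate carrier, *Slc16a7*, passed it and was lower (log2 fold change −0.24, adjusted p = 0.0183 from limma). None of 11 tested regulators of glycolytic flux had an adjusted p under 0.05. Their log2 fold changes lay between −0.26 (*Pfkfb2*, a kinase that makes the activator of phosphofructokinase) and 0.23 (*Pdk3*, a kinase that blocks pyruvate dehydrogenase). Of the 5 pyruvate dehydrogenase genes none was called, and *Pdhx*, at 0.31 (adjusted p = 0.0338 from limma), was the only one past the adjusted p. In the pentose phosphate pathway, which branches off glucose-6-phosphate, 2 of 8 genes were called higher, against 2.72% of all tested genes. *Pgls* rose from 2467, 2330 and 3185 to 4409, 4672 and 5107 and *Taldo1* from 3916, 3390 and 4354 to 6024, 6034 and 6138, while the entry enzyme *G6pdx* was at −0.13 (adjusted p = 0.337 from limma) and *Tkt* at 0.14 (adjusted p = 0.174 from limma). Of the 6 tested gluconeogenesis and glycerol phosphate genes none was called, and *Pcx* (0.58) and *Fbp1* (0.43) passed the adjusted p only.

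Messages of the transcription factors best known to act on glycolytic genes differed little. *Hif1a*, the oxygen-regulated factor, had a signal of 768, 832 and 741 in *Ltbr*-/- and of 679, 865 and 871 in Ly5.1 cells (log2 fold change −0.04, 95% interval −0.23 to 0.16, adjusted p = 0.850 from limma). *Myc* had a signal of 4029, 3937 and 4191 against 3373, 3350 and 3731 (log2 fold change 0.22, adjusted p = 0.0443 from limma), and none of the 9 tested factors was called. Of the 6 tested genes for HIF turnover and prolyl hydroxylases, *Egln1*, an oxygen sensor that marks HIF for decay and is itself a HIF target, rose from 426, 424 and 414 to 655, 615 and 724 (log2 fold change 0.65, adjusted p = 9.75e-07 from limma). *Egln3*, at −0.07, and *P4ha1*, at 0.22, did not pass the adjusted p. *Vhl*, part of the ligase that removes HIF, passed the adjusted p only and was lower (log2 fold change −0.26, adjusted p = 0.0306 from limma).

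Since these genes moved together, the 250 bases before their annotated starts were searched on both strands for ACGTG and GCGTG, the core letters bound by HIF, for CACGTG, the E-box bound by MYC, and for GGGCGG, a motif of SP1. Of the 10 members, 8 held ACGTG or GCGTG before at least one of their starts (15 starts in all), against 41.5% of all genes in the RefSeq table for GRCm38.p6. ACGTG alone was found in 5 members (18.5% of all genes), GCGTG in 5 (30.9%), CACGTG in 1 (6.86%) and GGGCGG in 7 (35.4%). All genes were not matched to the members for number of starts, GC content or expression, so these shares are a rough background. *Gpi1* and *Tpi1* were called and held neither core, whereas *Hk2* was not called and held ACGTG at 2 places. A match is a string of letters and not a measured site. The upstream stretches of 3 called members and of *Hk2* are shown 5′ to 3′ with every match of the HIF core letters and the E-box, on either strand, in capitals; *Ldha* holds the only CACGTG pair, *Pgk1* and *Aldoa* are the most changed members, and *Hk2* holds the letters without a change.
*Ldha*, chr7:46845554-46845803, plus strand: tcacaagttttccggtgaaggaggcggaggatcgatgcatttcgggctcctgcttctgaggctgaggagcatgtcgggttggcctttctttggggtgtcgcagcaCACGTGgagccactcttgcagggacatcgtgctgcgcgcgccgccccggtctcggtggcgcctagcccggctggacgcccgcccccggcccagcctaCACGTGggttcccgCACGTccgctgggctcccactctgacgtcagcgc
*Pgk1*, chrX:106186850-106187099, plus strand: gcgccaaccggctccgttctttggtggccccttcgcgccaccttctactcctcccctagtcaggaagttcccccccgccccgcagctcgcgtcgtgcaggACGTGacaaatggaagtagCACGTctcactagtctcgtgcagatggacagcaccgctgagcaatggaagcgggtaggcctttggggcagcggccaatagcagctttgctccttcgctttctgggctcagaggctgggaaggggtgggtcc
*Aldoa*, chr7:126799255-126799504, minus strand: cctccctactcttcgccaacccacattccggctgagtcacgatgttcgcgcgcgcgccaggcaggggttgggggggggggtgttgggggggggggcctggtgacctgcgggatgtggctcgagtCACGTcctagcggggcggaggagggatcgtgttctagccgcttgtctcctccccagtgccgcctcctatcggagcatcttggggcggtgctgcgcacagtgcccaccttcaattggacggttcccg
*Hk2*, chr6:82774455-82774704, minus strand: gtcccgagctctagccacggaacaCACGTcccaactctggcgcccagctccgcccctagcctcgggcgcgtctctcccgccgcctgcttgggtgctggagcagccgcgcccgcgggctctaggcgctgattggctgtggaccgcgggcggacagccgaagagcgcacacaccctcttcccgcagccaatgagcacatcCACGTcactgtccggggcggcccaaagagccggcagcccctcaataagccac

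Each CACGTG also holds ACGTG on either strand, so that the 5 matches of ACGTG before *Ldha* include both E-boxes, counted on both strands. None of the 4 stretches overlaps an annotated exon of GENCODE M21. The stretch of *Aldoa* lies before the second of its 3 annotated starts and that of *Ldha* before the first of 2, while *Pgk1* and *Hk2* have 1 start each.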

How the data were processed

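The files hold, per gene name and sample, a signal that the authors deposited after assembling single reads of 76 bases with SeqMan NGen, quantifying them with ArrayStar and computing regularized log values in Bioconductor (the submitters' processing notes list DESeq2, GRCm38 and mm10). The files do not state the scale, and a power of 2 of the regularized log was inferred from the range of their numbers. The files give no counts, so depth per sample is unknown, no interval or floor from counting was computed, and precision rests on 3 samples a group. Counting of strand and of reads that match several genes is not given in the sources used here.

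*Ltbr*-/- and Ly5.1 samples were compared on log2 of the signal by lmFit and a trended eBayes (limma 3.58.1, R 4.3.3) on the 13108 of 26216 gene names in the upper 50% by mean; a repeated name kept its entry with the highest mean. Single genes were also compared by exact permutation (scipy 1.17.1). The fit was tested on simulated data. The members and lists were chosen with earlier results of these data known. Besides the members, the genes named are *Pkm*, all called genes of the fixed lists, abundant list genes, the copies sharing most windows and the 5 genes most like the members; others, such as *Pdhx*, were picked with their values in view. The alternatives tried were other filters, scalings, variance models, thresholds, a pseudocount of 1, the mean of repeated names, the replicate number as a block and leaving out each sample. Of 178 list symbols, 172 were found as such and 5 by a RefSeq synonym. Positions and promoters came from RefSeq (GRCm38.p6) and transcripts from GENCODE M21.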

Additional observations from a re-analysis of the deposited data

How the results depend on the processing

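The number of members called higher stayed at 7 with any 1 sample left out, with a member median between 0.72 and 0.80, between 334 and 398 genes called higher and between 8 and 12 lower. It was also 7 without a filter, with the upper 25% of gene names (4 genes lower), with other variance models, a pseudocount of 1 or the mean of repeated names, and 9 without a fold threshold (1388 genes higher, 548 lower). With a fold of at least 2 it was 2 (37 higher, 5 lower). Without moderation of the variance, the adjusted p of the 7 called members lay between 0.0233 and 0.0321 (unmoderated t-test). *Pfkl* was at 0.0861 by that test, 8 members passed the adjusted p and 270 genes were called higher. Quantile normalization gave 4 members called higher, a member median of 0.55 and 28 genes lower. Centring on the upper 10% of tested genes gave a median of 0.67, 16 genes lower and 4 called higher in the other pathway lists. Centring on ribosomal protein genes gave 0 members and 0 genes called higher, 11926 genes lower, 0 higher and 55 lower in the other lists, and a member median of −0.10, with *Gpi1* at −0.09, *Pfkl* at −0.51, *Tpi1* at −0.17, *Gapdh* at −0.11, *Pgam1* at −0.32 and *Eno1* at −0.06; *Aldoa* (0.37), *Pgk1* (0.25) and *Ldha* (0.04) kept their sign. That scaling sets the median of the ribosomal protein genes equal in all samples by construction, and which scaling is apt was not tested. Without Ly5.1 replicate 1 and replicate 3, *Hk2* was at 0.05 and 0.01, and with any 1 sample left out it lay between −0.13 and 0.05. The 6 members with under 10% shared windows, a choice made after seeing the data, as was the one by distance from *Ltbr* (5 of 8 called), gave 4. With the replicate block 7 members, 356 genes higher and 8 lower were called. The deviations of same-numbered samples from their group means had correlations of 0.0314, −0.0052 and 0.0899, and not every sample correlated best with its own number. With 3 samples a group, this cannot decide whether same-numbered samples came from the same hosts. Depth limits are unknown, and the regularized log understates changes of weakly expressed genes.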
